A study of Drosophila melanogaster with 4 samples.

Results

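The list of binding sites of the Hox protein Abd-B in Drosophila melanogaster was examined in 2 genomic windows. They are named after ct and after salm and salr, and together held 7 of the 4389 peaks. The windows were set by position on FlyBase release 5, by peak midpoint. The ct window ran on X from 7430000 to 7610000 (180 kb) and held 2 of the 672 peaks of X. It was meant to cover the gene with its upstream enhancers. The window of salm and salr ran on 2L from 11420000 to 11520000 (100 kb) and held 5 of the 641 peaks of 2L. The rule itself used positions only and no measured value, but the windows and genes were chosen with earlier results of these data known.

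The peaks came from chromatin immunoprecipitation and sequencing (ChIP-seq) of third-instar larvae of the strain Abd-B-GFP, whose sex was not recorded. Their genotype was w; PBac{y[+]-attP-3B}VK00037. All libraries carried the same transgene, the genomic Abd-B coding region with its stop codon exchanged for GFP, and no larvae without the transgene were analysed here. DNA precipitated with a rabbit antibody against GFP gave 2 libraries and input DNA gave 2. One list with 1 score per peak stands for all of them, so no value below has a replicate error, and the depth of each library is unknown. The extraction protocol in the labels names y; bw cn sp flies, while the sample characteristics name the tagged strain. The tissue was the whole larva, so a peak averages over many cell types.

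Abd-B is the most posterior Hox protein of the bithorax complex and specifies the posterior abdomen. In the embryo it directs formation of the posterior spiracles, the openings of the tracheal system at the tail end. These consist of an inner spiracular chamber and an outer protrusion, the stigmatophore. ct encodes Cut, a homeodomain transcription factor needed in the spiracular chamber, and salm and salr encode the zinc finger transcription factors Spalt major and Spalt-related, of which salm is known from the stigmatophore. All 3 genes are used again later, ct in external sense organs and the wing margin, salm and salr in the patterning of the wing disc. The posterior spiracles form in the embryo, whereas these libraries came from wandering larvae.

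The RefSeq gene table used here follows release 6, so its positions were kept apart from the peaks. It served for names and gene order alone. It lists ct (Dmel_CG11387) on X between the protein-coding neighbours CG12689 and CHES-1-like. On 2L it lists salr (Dmel_CG4881) and salm (Dmel_CG6464) as adjacent protein-coding genes, in the order CG14926, salr, salm and sala from low to high positions. Which peak lies in an exon, an intron or between genes was therefore not analysed here. In that table the numbers listed for salm fall inside the interval of the rule, and those for salr fall outside it on the low side. Those for ct overlap an end of the ct window. The numbering of the 2 releases was not compared here, so this places no gene on release 5. Whether the window of 2L holds salr was not determined. The windows are named as the rule names them, and peaks at ct are those of the ct window. No sequence of release 5 was used.

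The ct window held 2 Abd-B-GFP peaks, 1 in the top 25% of the list by score and 1 among the lowest-scoring of the arm. The count depended on the borders: with the window moved by 20 or 50 kb it was 4 and 5 towards higher positions and 1 towards lower ones, an alternative chosen after seeing the data. The first peak, at X:7521157-7521624, measured 468 bp with a score of 39.58, which ranked 141st of the 672 peaks of X. Scores are given as the authors' peak caller wrote them, 1 per peak. A higher score is read here as a stronger call, although the deposited list does not define the score. The second peak, at X:7591037-7591347, measured 311 bp with a score of 7.39, and only 8 peaks of X scored lower. The first score was 5.36 times the second. A score in the top 25% of the whole list (at least 28.21) was reached by 1 of these 2 peaks, against 30.4% of all peaks on X. A width in the top 25% (at least 658 bp) was reached by 0 of the 2, against 33.2% on X.

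The peak of 39.58 lay 91.4 kb from the low end of the window, close to its middle. The peak of 7.39 lay 161 kb from that end. They were 69.4 kb apart, and no other peak lay between them. Of the 9 stretches of 20 kb that make up the window, 2 held a peak.

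**Figure D1:**
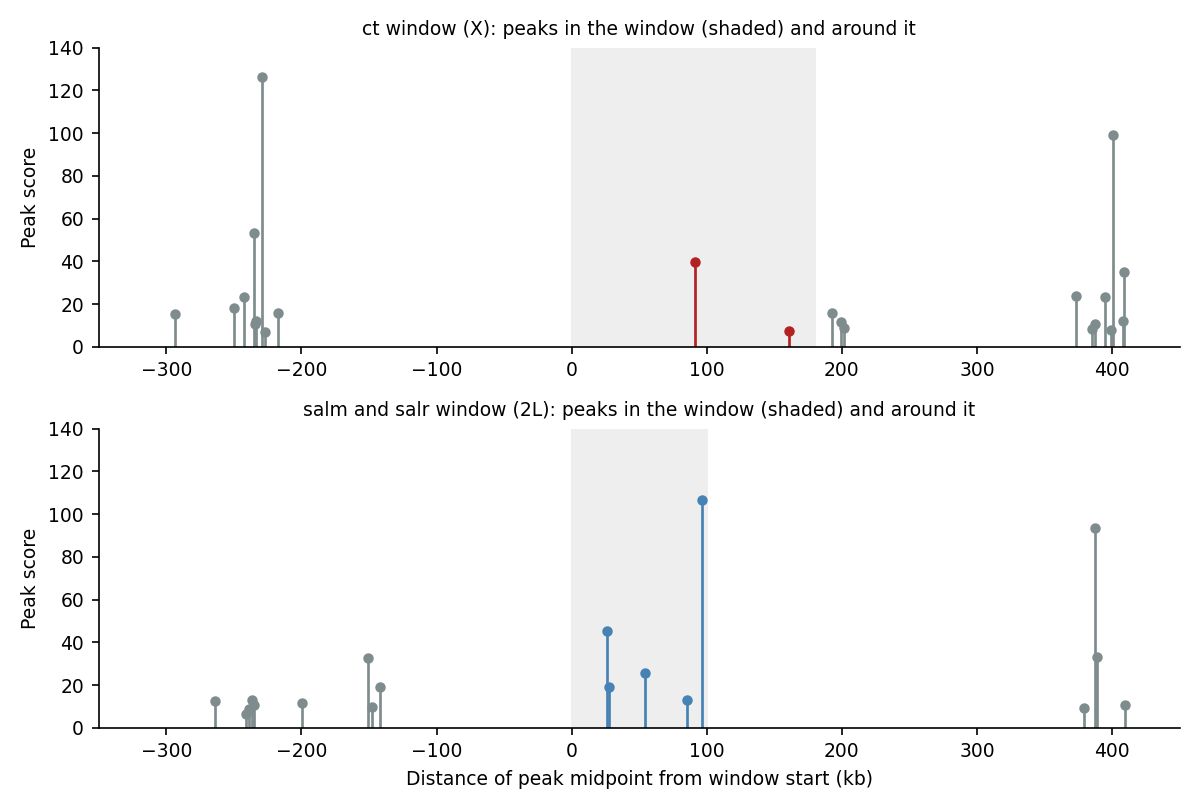
Peaks in and around both windows, with the distance of the peak midpoint from the window start in kb on the x axis and the peak score on the y axis. The shaded area is the window, coloured stems are its peaks and grey stems are other peaks. The ct window holds peaks of 39.58 and 7.39, and the window of salm and salr holds 5, the strongest with a score of 106.54 near its high end.

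The window of salm and salr held more peaks over a shorter length, among them a strong one. From low to high positions, the first peak, at 2L:11445444-11446424, was 981 bp wide with a score of 45.53. The second, at 2L:11447474-11447862, was 389 bp wide with a score of 19.09 and lay 1049 bp beyond the first. These were the closest neighbours of the window. The third peak, at 2L:11473933-11475330, was the widest of all 7, at 1398 bp, with a score of 25.56. The fourth, at 2L:11504988-11505289, was the narrowest, at 302 bp, with a score of 12.97.

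The fifth peak, at 2L:11516289-11517124, was 836 bp wide with a score of 106.54. It ranked 9th of the 641 peaks of 2L and 121st of the whole list. Its score was 2.34 times that of the next strongest peak of the window. Scores in the top 25% were reached by 2 of the 5 peaks, against 25.9% of all peaks on 2L. Widths in that range of the list were reached by 3 of the 5, against 25.0% on 2L. With 5 peaks these shares are descriptions, and peaks are not replicates.

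In number of peaks neither window stood far from its arm. Every window of equal size was tiled outward from the one examined, within the span of the peaks of the arm. Windows are not replicates, and ranks among them are given without a test. On X, the other 122 windows of 180 kb held 5.46 ± 4.66 peaks (SD over windows), with a median of 4 and a range from 0 to 26. The 2 peaks at ct were more than in 20 of these windows, equal to 19 and fewer than in 83, so that 32.0% of the windows held as few or fewer. On 2L, the other 227 windows of 100 kb held 2.79 ± 2.85 peaks, with a median of 2 and a range from 0 to 16. The 5 peaks of the window of salm and salr were more than in 182 of these, equal to 14 and fewer than in 31, so that 19.8% held as many or more.

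Per length, the ct window had 11.1 peaks per Mb (exact Poisson 95% interval 1.35 to 40.1) and X as a whole had 30.2. The window of salm and salr had 50.0 peaks per Mb (16.2 to 117) and 2L as a whole had 28.0. Both intervals include the value of the arm, and they overlap each other, but a difference in density was not tested. The intervals cover counting error between peaks only and take peaks as independent. Counts over windows spread more widely than independent peaks would give (SD 4.66 at a mean of 5.46 on X, 2.85 at 2.79 on 2L). The intervals are therefore too narrow and serve as a description.

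**Figure D2:**
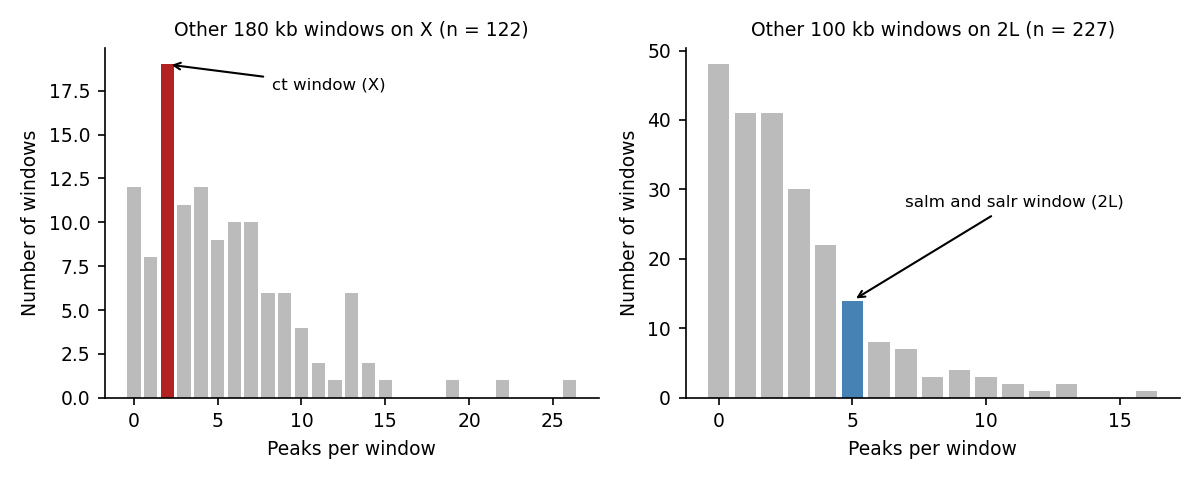
Number of peaks per window (x axis) against the number of other windows of equal size on the same arm (y axis), for 180 kb on X and 100 kb on 2L. The coloured bar marks the count found at ct (2 peaks, shared by 19 other windows) and in the window of salm and salr (5 peaks, shared by 14 other windows).

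The share of sequence inside peaks was low in the ct window and high in that of 2L within the ranges of their arms, and depended on the borders. At ct, 779 bp or 0.433% of the window lay in peaks, less than in 98 of the other 122 windows of X, whose median was 1.33%. In the window of salm and salr, 3906 bp or 3.91% lay in peaks, more than in 211 of the other 227 windows of 2L, whose median was 0.958%. Among the windows of 2L that also held 5 peaks, all 14 had less of their length in peaks. The strongest peak of each of these 14 windows also scored below 106.54. Among the 19 windows of X that also held 2 peaks, 15 had more of their length in peaks than ct and 4 had less.

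The strongest peak of the window of salm and salr exceeded the strongest of 171 of the 179 windows of 2L with any peak. The strongest peak at ct, 39.58, exceeded that of 46 of the 110 windows of X with any peak, equalled that of 1 and fell below that of 63. For windows with 3 or more peaks, medians could be compared on 2L. The median score in the window of salm and salr was 25.56, above 75 of 97 other windows. The median width was 836 bp, above 96 of the 97, whose median was 397.5 bp. The ct window had too few peaks for such medians.

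Width and score rose together on both arms (Spearman 0.767 over 672 peaks on X and 0.796 over 641 on 2L, both measures coming from the same reads), so each peak was also set beside peaks of like score. Peaks within 20% of its score on the major arms were used. The third peak of the window of salm and salr, 1398 bp at a score of 25.56, was wider than all 80 such peaks on 2L and stood at percentile 97.4 of the 545 on the major arms, whose median was 594 bp. The peak of 106.54 was not wide for its score: its 836 bp stood at percentile 27.3 of 110 peaks, whose median was 1016 bp. The stronger ct peak was narrow for its score, at percentile 12.3 of 350 peaks with a median of 704.5 bp. The weaker ct peak stood at percentile 77.6 of 392 peaks with a median of 245 bp.

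Of the remaining 3 peaks of 2L, the first stood at percentile 78.4 of 324 peaks of like score in width, the second at 31.8 of 776 and the fourth at 38.9 of 1271. The large share of the window in peaks thus came mostly from the peaks of 1398, 981 and 836 bp, of which the widest alone made up 35.8% of the covered length.

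**Figure D3:**
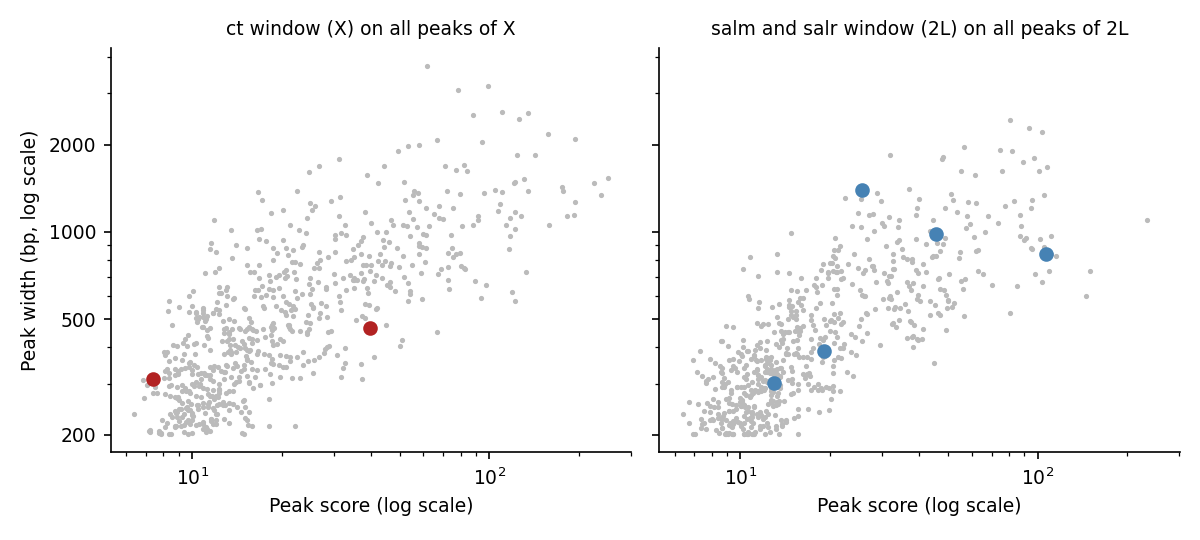
Peak width in bp (y axis, log scale) against peak score (x axis, log scale) for all peaks of X and 2L (grey) and for the peaks of each window (coloured). The peak of 1398 bp at a score of 25.56 lies at the upper edge of the 2L cloud, and the ct peak of 468 bp at 39.58 lies near the lower edge of the X cloud.

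Both sets of peaks bordered long stretches without any peak. The 5 peaks of 2L formed a run of 71.7 kb. Before it lay 167 kb without a peak, the 26th longest of the 640 gaps of the arm, and after it 282 kb, the 5th longest. The median gap on 2L was 14088.5 bp, and the longest was 632 kb. Inside the run the gaps were 1049, 26070, 29657 and 10999 bp, with a median of 18534.5 bp that exceeded the median gap of 75 of 97 other windows. The windows of 100 kb on either side held 0 peaks each, as did 48 of the 227 windows.

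Before the first ct peak lay 308 kb without a peak, the 8th longest of the 671 gaps of X, whose median was 10104 bp. The low part of the window belonged to this empty stretch, and the 180 kb window before it held 0 peaks. Of the 122 other windows of X, 12 held 0 peaks. After the weaker ct peak a gap of 31.4 kb led to 3 peaks just beyond the window, which were followed by 171 kb without a peak. The adjoining window of 180 kb on that side held these 3 peaks, with scores up to 15.88. Counted without window borders and divided only at gaps of 100 kb or more, the 2 ct peaks and these 3 formed a run of 5 peaks over 111 kb. Divided at 50 kb or more, the stronger ct peak stood alone and the weaker one fell into a run of 4 with a top score of 15.88.

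Dividing each arm at every gap of 150 kb or more gave 31 other complete runs on X and 26 on 2L. On 2L, 5 of the 26 had 5 or fewer peaks, and 0 of these 5 reached a score of 106.54. Of all 26, 5 had a stronger top peak. On X, 7 of the 31 had 5 or fewer peaks, and 2 of these 7 had a top score above 39.58. Of all 31, 24 had a stronger top peak. With division at 100 kb or more, 27 of 61 other runs on 2L had 5 or fewer peaks and 2 of these 27 exceeded 106.54. Of all 61, 7 did. On X, 24 of 59 other runs had 5 or fewer peaks and 7 of these 24 had a top score above 39.58. Of all 59, 37 did. With division at 50 kb or more, 89 of 129 other runs on 2L had 5 or fewer peaks and 5 of these 89 exceeded 106.54. Of all 129, 8 did. On X at this limit, 26 of 119 other runs had 1 peak, like that of the stronger ct peak. Of these 26, 8 scored above 39.58, and of all 119, 56 had a higher top score. For the run of 4 with the weaker ct peak, 71 of 119 other runs had 4 or fewer peaks. Of these 71, 55 had a top score above 15.88, and of all 119, 102 did. These gap limits were chosen after the positions had been seen. Over a wider scale the surroundings were not empty: 1 Mb centred on the ct window held 29 peaks, against 30.9 ± 16.7 in 20 other stretches of X, and 1 Mb centred on the window of salm and salr held 31, against 27.6 ± 9.46 in 20 other stretches of 2L.

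**Figure D4:**
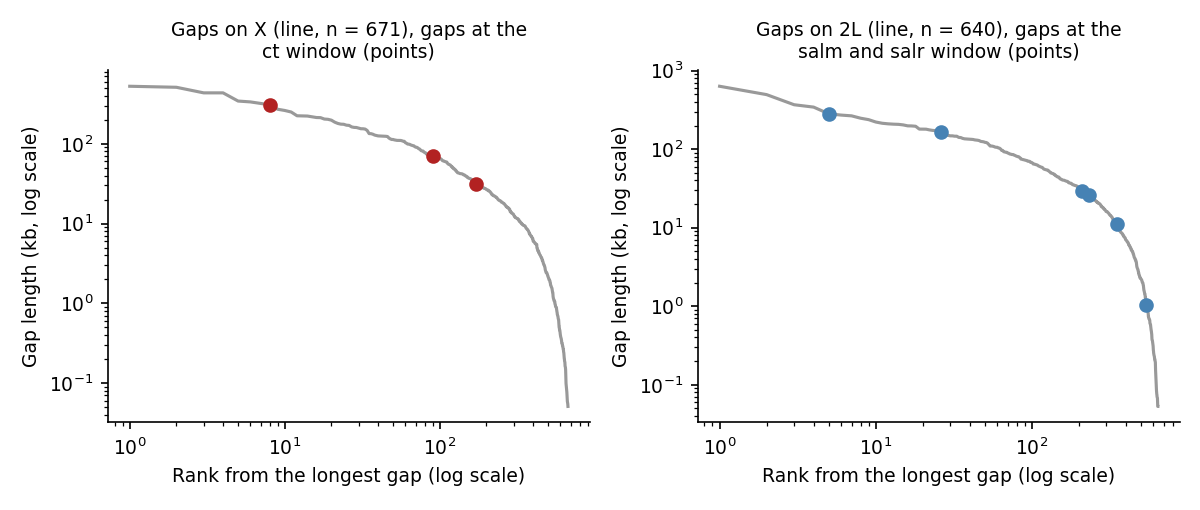
Length of the gaps between neighbouring peaks in kb (y axis, log scale) by rank from the longest (x axis, log scale) on X (671 gaps) and 2L (640 gaps). Points mark the gaps inside and beside each window: 308, 69.4 and 31.4 kb at ct, and 1.05 to 282 kb in and beside the window of salm and salr, where the outer gaps of 167 and 282 kb are the longest of the 6.

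At the window borders, the peaks just inside and just outside were as follows. At ct, the last peak before the window lay 217 kb from its border with a score of 15.88, and the first peak inside lay 91.4 kb in. The last peak inside, that of 7.39, lay 18.8 kb from the high border, and the first outside lay 12.9 kb beyond it, also with a score of 15.88. In the window of salm and salr, the last peak before the window lay 142 kb from its border with a score of 19.32, and the first inside lay 25.9 kb in. The strongest peak, 106.54, lay only 3.29 kb inside the high border, and the next peak, with a score of 9.42, lay 279 kb beyond it. The membership of the strongest peak therefore depends on where that border was set.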

How the data were processed

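Per the file headers, the deposited peak list is on FlyBase release 5 (BDGP5) and was made with MACS. Tools named per the submitters' processing notes were BWA, MACS2 and CASAVA (versions 1.7.0.2 and 1.7.0.3). Threshold, read filters and the handling of the 2 ChIP and 2 input libraries in the call were not found in the sources used here. The deposited score is the peak caller's value per peak, is not defined in the file, and keeps no library apart. A score of this kind generally rises with depth as well as enrichment, and the list holds only peaks that passed the call, so weak binding can be missing from both windows.

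Peaks were assigned by midpoint, gaps were measured between peak ends, and equal windows were tiled outward within the span of the first to last peak of the arm. Medians needed 3 peaks. Every peak of a window with 12 or fewer is named. No test was run, since the list has no replicate values. The counting step was checked on simulated positions, and 3 of 3 planted windows gave back the planted count. This checks the counting only, not the peak call or the detection of binding. Python 3.11.15, pandas 2.3.3, NumPy 2.4.6 and SciPy 1.17.1 were used. The windows and genes were chosen with earlier results of these data known. Alternatives were a stricter list, merged peaks, overlap in place of midpoints, sliding windows, all major arms and moved windows. Other posterior spiracle genes were not placed on the peaks, because no annotation of release 5 was used.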

Additional observations from a re-analysis of the deposited data

How the results depend on the processing

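A stricter list was limited to scores from 15.46 upward, the median of the whole list, and kept 2195 of the 4389 peaks. In it the ct window kept 1 of its 2 peaks, and the window of salm and salr 4 of its 5. Merging peaks less than 1 kb apart, or counting any overlap, left 2 and 5 peaks. The closest pair in the window of salm and salr lay 1049 bp apart, only just beyond the 1 kb limit for merging. In percentiles of the number of peaks among other windows, ct stood at 24.2, and at 17.6 to 25.4 under the alternatives. The window of salm and salr stood at 83.3, at 92.3 in the stricter list, at 88.8 with merged peaks and at 75.0 against windows on all major arms. The stricter list also moved its covered share from percentile 93.0 to 96.0. With sliding windows its median width stood at percentile 97.4 in place of 99.0. The cause of these moves was not tested.

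Window position mattered most, in alternatives chosen after seeing the data. The ct count became 1 with the window moved by 20 or 50 kb towards lower positions, and 4 and 5 with it moved by 20 and 50 kb towards higher ones. The count in the window of salm and salr became 3 and 2 with the window moved by 20 and 50 kb towards lower positions, and 5 and 3 towards higher ones. Both moves towards lower positions left out the peaks of 106.54 and 12.97. Extending the window by 100 kb towards lower positions added 0 peaks. The covered share also changed with the borders. At ct it was 0.26% with either move towards lower positions, and 0.848% and 0.966% with moves of 20 and 50 kb towards higher ones. In the window of salm and salr it was 2.77% and 1.37% with moves of 20 and 50 kb towards lower positions. Towards higher positions it was 3.91% and 2.54%.

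At ct, with fewer than 3 peaks, percentiles of median score, width and gap were not computed. No paired analysis was possible because all libraries share 1 list, which also means that none was left out in turn. The depth of the libraries is unknown, and its part in the weak peak of 7.39 was not tested.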
